A study of Homo sapiens with 2 samples.

Results

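ChIP-seq for H3K27me3, histone H3 with 3 methyl groups on lysine 27, was carried out in HCT116 cells, a human line from a colorectal carcinoma. The regions described here are windows of 100 kb with an intermediate level of reads for the mark and no enriched stretch inside them. There were 27 of them among the 14865 eligible windows of chromosomes 1 to 22, or 0.182%. A window was eligible when at least 90 of its 100 bins of 1 kb held a read in each library, and its level was the number of its reads divided by that of the mean eligible window in the library. A window was kept when its level lay between 0.8 and 1.5 in both libraries and none of its 20 bins of 5 kb reached 2-fold over the autosomal mean of 5 kb bins in both. Applied to replicate 1 alone, with its own eligible windows and mean, the rule kept 12 windows, and applied to replicate 2 alone, in which 22472 windows were eligible, it kept 282. A bin of 5 kb at 2-fold or more in both libraries is called enriched below, and "fold" is used for 5 kb bins, "level" for windows.

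The series held 1 group of 2 libraries, made with 1 antibody from HCT116 cells for which the labels name no treatment, and described in the labels as biological replicates. Replicate 1 held 53187504 reads and replicate 2 held 97031399 reads, so the mean eligible window held 3008 and 5481 reads and the mean 5 kb bin 97.8 and 178 reads. No input library was used here, and copy number and mappability are not corrected. The windows were chosen by the read counts of these same libraries, so their levels, and the absence of enriched bins in them, are described and not tested. Positions are on hg19.

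H3K27me3 is written by Polycomb repressive complex 2, whose catalytic subunit is EZH2 or EZH1 and whose EED subunit binds the finished mark, which lets the complex extend it along a chromosome. The mark is known for sharp enrichment at CpG islands of silent developmental genes and for broad domains that spread over silent genes and the ground between them. Lower, more diffuse amounts are known between such domains. A window of intermediate level can therefore hold an even layer of the mark, or enriched and lower stretches that average out to the same level.

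In these cells nearly all windows of intermediate level contained enriched bins. Windows at 0.8 to 1.5 in both libraries numbered 2856, or 19.2% of those eligible, and 27 of them (0.945%) held no enriched bin. Another 77 (2.70%) held 1 such bin, 186 held 2 and 304 held 3, and the commonest number was 5, in 414 windows. In the 2829 windows of intermediate level with an enriched bin, the median number was 6 of 20 bins, and these bins held a median of 52.3% of the window's signal. Their other bins were not poor: they averaged a median of 1.17-fold per window, and 8.67% of all 5 kb bins in these windows were under 0.5-fold in both libraries. In the 27 windows without an enriched bin the bins averaged a median of 1.355-fold, against 1.08-fold for the other bins of 1075 windows with an enriched bin in the same range of levels. The level limit holds the first value at 1.23-fold or more. Leaving out the enriched bins lowers the second at the same level, so this contrast follows from the rule. Over all eligible windows 57.0% held an enriched bin and 43.0% held none, and windows under 0.8 in both libraries without one made up 42.7%.

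**Figure D1:**
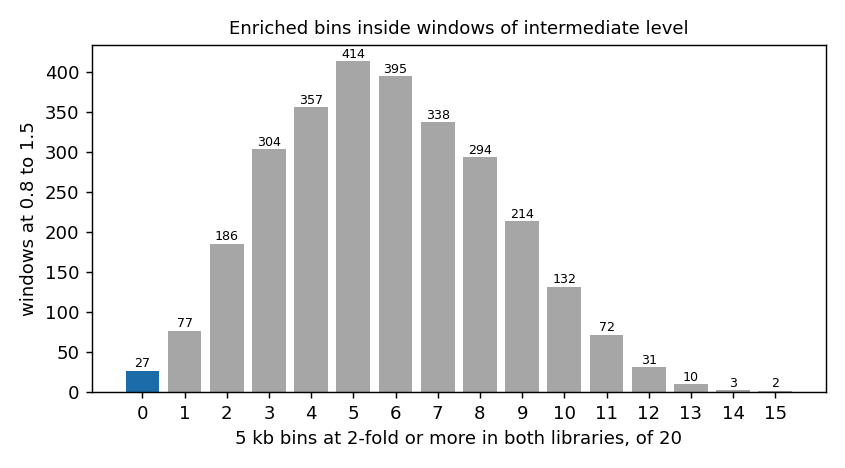
Number of windows at a level of 0.8 to 1.5 in both libraries (vertical axis) by the number of their 20 bins of 5 kb that stood at 2-fold or more in both libraries (horizontal axis). The 27 windows described here are the blue bar at 0, and the tallest bar is 414 windows with 5 enriched bins.

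The share of windows without an enriched bin fell as the level rose. It was 92.9% of 1683 windows at a mean level of 0.3 to 0.4, 47.9% of 935 at 0.5 to 0.6 and 13.9% of 693 at 0.7 to 0.8. From 0.8 to 0.9 it was 3.92% of 561 windows, from 0.9 to 1 it was 1.81% of 498 and from 1 to 1.1 it was 0.407% of 492. None of the 421 windows at 1.1 to 1.2 and none of the 1011 windows at 1.2 to 1.5 lacked an enriched bin. Level and enriched bins come from the same reads, so a fall is built into the rule. The mean eligible window stood at 1.54 times the mean of 5 kb bins in both libraries, which puts the lower limit of 0.8 at an average of 1.23-fold per 5 kb bin. The upper limit of 1.5 is at 2.31-fold, above the 2-fold allowed to any bin in both libraries. A window with every bin at 2-fold would have a level of 1.30 in each library, so the upper part of the range could hardly be filled.

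**Figure D2:**
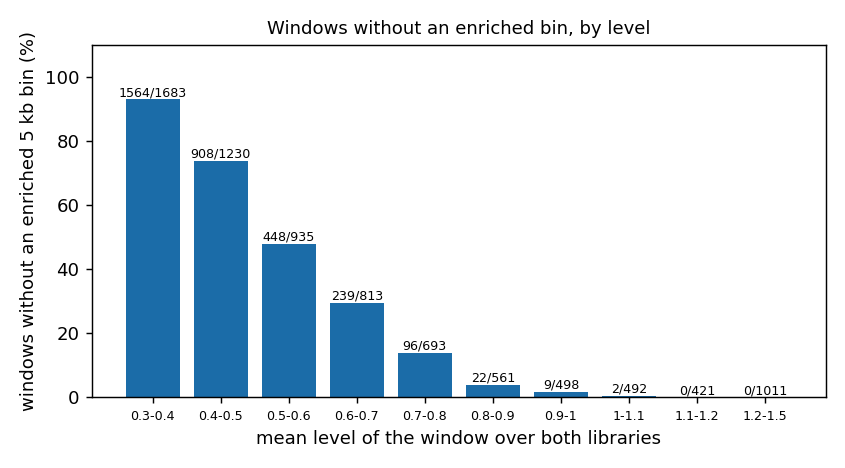
Share of eligible windows without an enriched 5 kb bin (vertical axis, percent) in steps of the window's mean level over both libraries (horizontal axis). Labels above the bars give windows without an enriched bin over all windows of the step; the share is 13.9% at 0.7 to 0.8 and 0 from 1.1 upward.

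The 27 windows crowded at the lower limit. Their levels in replicate 1 had a lowest value of 0.810, a median of 0.862 and a highest of 1.05, and in replicate 2 the same values were 0.801, 0.896 and 1.04. By the mean of both libraries 16 windows lay at 0.8 to 0.9, 9 at 0.9 to 1 and 2 at 1 to 1.1. The libraries differed by at most 7.06% of a window's level. Replicate 1 was the higher in 12 windows and replicate 2 in 15, and the log2 ratio of replicate 1 over replicate 2 had an SD of 0.048 across the 27 windows, against 0.0532 across 1075 windows of the same range of levels that held an enriched bin.

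**Figure D3:**
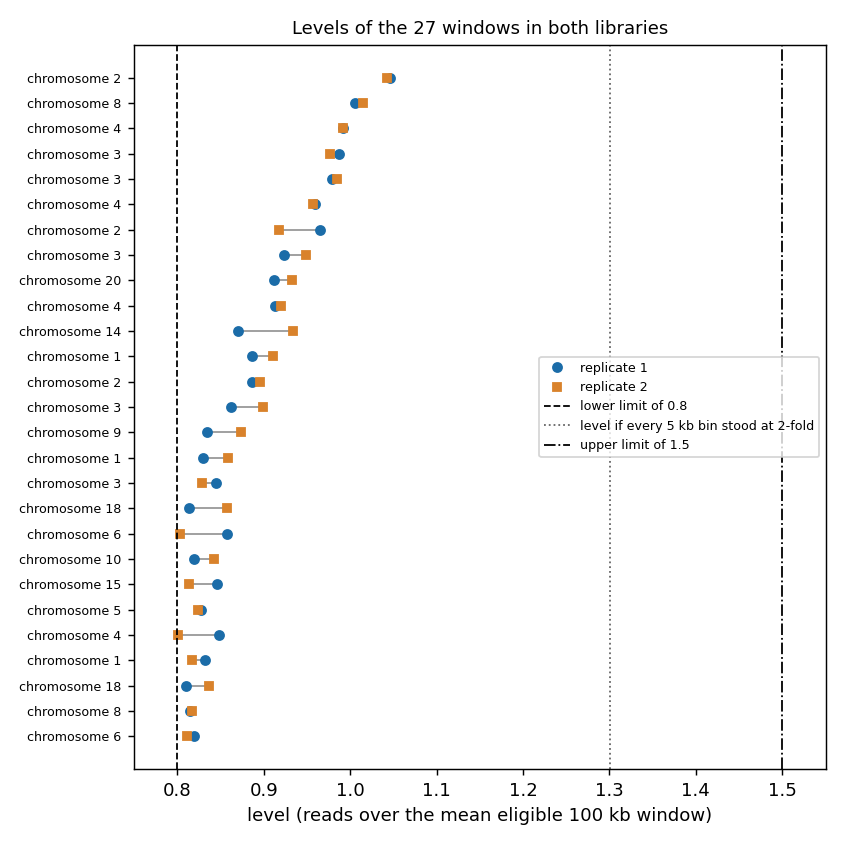
Levels of the 27 windows in replicate 1 (circles) and replicate 2 (squares), 1 row per window, labelled by chromosome and ordered by mean level. The horizontal axis is reads over the mean eligible window; vertical lines mark the limits of 0.8 and 1.5 and the level of 1.30 that a window with every 5 kb bin at 2-fold would have. All points lie between 0.801 and 1.05.

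The windows nearest the limits show how narrowly some were kept. Just inside 0.8 were the chromosome 4 window from 46900001 to 47000000, at 0.849 in replicate 1 and 0.801 in replicate 2, and the chromosome 6 window from 114700001 to 114800000, at 0.858 and 0.804. Just outside it was the chromosome 10 window from 26300001 to 26400000, at 0.854 and 0.799. The difference between the libraries was larger than the distance of these 3 windows from the limit. For the limit on 5 kb bins, the highest bin of a kept window, read in the lower of its libraries, was 1.97-fold on chromosome 2 from 60000001 to 60100000. The lowest value among windows left out was 2.01-fold, on chromosome 10 from 73400001 to 73500000.

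The 2-fold limit applied to both libraries together, and 23 of the 27 windows held a 5 kb bin that passed it in 1 library alone. The windows with none in either library were 4: chromosome 4 from 46900001 to 47000000, chromosome 9 from 118700001 to 118800000, chromosome 18 from 7000001 to 7100000 and chromosome 20 from 38000001 to 38100000. Their highest bins were 1.82-fold and 1.94-fold on chromosome 4, 1.84-fold and 1.92-fold on chromosome 9, 1.91-fold and 1.98-fold on chromosome 18, and 1.98-fold and 1.89-fold on chromosome 20, in replicates 1 and 2. When the rule was applied in replicate 1 alone, with the same windows and means, 12 windows met it, of which 11 were at 0.8 to 1.5 in replicate 2 and 4 had no bin at 2-fold there. Their highest bin in replicate 2 had a median of 2.03-fold and reached 2.38-fold. Windows set in replicate 2 alone numbered 11, of which 10 were at 0.8 to 1.5 in replicate 1 and 5 had no bin at 2-fold there. Their highest bin in replicate 1 had a median of 2.00-fold and reached 2.48-fold. Most windows set in 1 library thus held a bin at 2-fold or more in the other, where the median highest bin lay near the limit.

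The longest run of adjacent windows was 100 kb, which means that no 2 of the 27 windows touched each other. At this definition they were 27 separate windows on 13 chromosomes rather than broad blocks. The longest run was 300 kb with the rule in replicate 2 alone, 100 kb in replicate 1 alone, and 200 kb with windows shifted by 50 kb. The closest pair lay on chromosome 4, from 23800001 to 23900000 and from 24000001 to 24100000. The window between them held no enriched bin and stood at 0.747 in replicate 1 and 0.776 in replicate 2, under the limit of 0.8. The 1st of the pair held 2748 and 5041 reads, a level of 0.914 and 0.920, and the 2nd held 2982 and 5433 reads, a level of 0.991 in both libraries. Both lay in 1 stretch of 1240 kb without an enriched bin, from 22905001 to 24145000, whose 5 kb bins averaged 0.681-fold and 0.686-fold. The level in that stretch rose toward its upper end: the window below the pair was at 0.411 and 0.445, and the window above it, which held 4 enriched bins, was at 1.01 and 1.03.

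Fixed window borders cut such regions, so all 100 kb windows at every 5 kb start were also examined, a setting chosen after the data had been seen. Passing windows, joined where they overlapped or touched, formed 124 extents on 21 chromosomes with a total of 15.5 Mb, a median length of 115 kb and 30 of exactly 100 kb. The longest was 370 kb, on chromosome 4 from 23775001 to 24145000, at 0.864 in replicate 1 and 0.874 in replicate 2, and it contained the chromosome 4 pair. Only 4 extents reached 200 kb. The others were 225 kb on chromosome 6 from 51155001 to 51380000 at 0.829 and 0.835, 210 kb on chromosome 17 from 32275001 to 32485000 at 0.841 and 0.864, and 205 kb on chromosome 2 from 222235001 to 222440000 at 0.901 and 0.889.

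Inside the windows most 5 kb bins stood above the autosomal mean, but they were not level. Without an input library, fold does not separate the mark from background reads. Of their 540 bins of 5 kb, 352 (65.2%) lay at 1-fold to under 2-fold in both libraries, 79 (14.6%) under 1-fold in both and 4 (0.741%) under 0.5-fold in both. Each window had between 11 and 19 of its 20 bins at 1-fold or more in both libraries, with a median of 14. The lowest bin of a window, as the mean of both libraries, had a median of 0.617-fold, and the highest bin had a median of 1.99-fold. At 1 kb, 2.93% of bins in these windows were under 0.5-fold in both libraries and 5.96% were at 2-fold or more, against 14.4% and 17.5% in the 1075 windows of the same range of levels with an enriched bin. Bins of 1 kb at 3-fold or more in both libraries made up 0.148% in these windows, against 6.48% in those 1075. The 2-fold limit on 5 kb bins parts these sets, and the lower limit asks for an average of 1.23-fold per 5 kb bin. These contrasts are therefore in large part set by the rule.

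Evenness was measured as the variation between 5 kb bins that both libraries shared, the square root of their covariance around the window mean as a percent of that mean. Counting noise, which is independent between the libraries, drops out of it, while differences in mappability along a window, which both libraries share, do not. Its median over the 27 windows was 26.1%, with 18.8% and 35.5% as the 10th and 90th percentiles. In the windows of the same range of levels with an enriched bin it was 60.4%, with 36.8% and 95.5%. The 2-fold limit removes the high bins, so the lower value in the 27 windows is in large part set by the rule, and 6 of the 1075 windows (0.558%) lay at or under 26.1%. Windows under 0.8 without an enriched bin had a median of 40.3% at a median level of 0.303 and 0.305. The same 2-fold limit stands much farther above their mean and leaves more room for variation, so they are no control for the evenness of the 27 windows. With 1 kb bins the median was 34.4% in the 27 windows, 70.4% in the 1075 and 50.7% in those under 0.8.

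**Figure D4:**
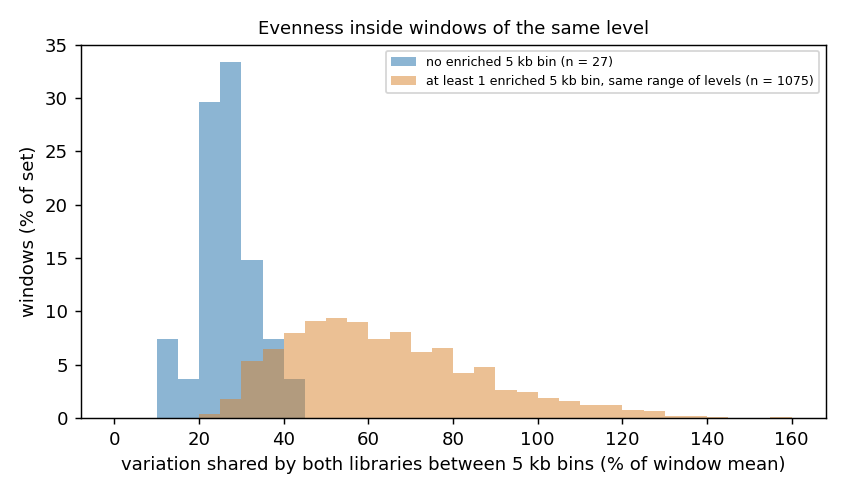
Distribution of the variation between 5 kb bins shared by both libraries (horizontal axis, percent of the window mean; the last bar collects higher values) as a percent of each set of windows (vertical axis). The 27 windows without an enriched bin (blue) have a median of 26.1%, and the 1075 windows of the same range of levels with at least 1 enriched bin (orange) have a median of 60.4%.

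The variation that remained was shared between the libraries. Over the 540 bins, the deviations from the window mean had Pearson's r of 0.802 between replicates 1 and 2, as a description across bins that share windows and neighbours. Within single windows of 20 bins, r had a lowest value of 0.542, a median of 0.802 and a highest of 0.891. Between bins 5 kb apart, read in different libraries, r fell to 0.221 in the 27 windows, and at 10 kb it was 0.0334. In the 1075 windows with an enriched bin it was 0.507 and 0.219, and in windows under 0.8 without one 0.326 and 0.110. The rule removes enriched stretches from the 27 windows. At the same bin r also differed, 0.802 against 0.970 in the 1075, so the sets cannot be compared for the length of their ups and downs.

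The most even window lay on chromosome 3 from 62700001 to 62800000. It held 2944 reads in replicate 1 and 5395 in replicate 2, a level of 0.979 and 0.984. Its bins ran from 1.07-fold to 1.96-fold as the mean of both libraries, 19 of 20 were at 1-fold or more in both, and the shared variation was 13.6%. This window thus held reads above the autosomal mean in nearly every 5 kb. It began 5 kb beyond an enriched bin, and the window below it held 18 enriched bins at a level of 2.31 and 2.41. On its other side no enriched bin followed for 515 kb, and the next window was at 0.574 and 0.636. It therefore formed an even step between a domain and a window somewhat below the median level of eligible windows, 0.659 and 0.657.

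Close behind was the chromosome 2 window from 222300001 to 222400000, with a shared variation of 13.7%. Its 2902 and 5030 reads gave 0.965 and 0.918, and its bins ran from 0.964-fold to 1.80-fold. The next were the upper window of the chromosome 4 pair, with 15.5% and bins from 1.01-fold to 1.90-fold, and the chromosome 9 window from 118700001 to 118800000, with 21.0%. The window with the highest level, on chromosome 2 from 60000001 to 60100000, followed at 21.1%. It held 3147 and 5714 reads, a level of 1.05 and 1.04, its bins ran from 0.850-fold to 2.11-fold, and a window with 13 enriched bins touched its upper end. The remaining windows of the 10 most even were on chromosome 3 from 117400001 to 117500000, chromosome 4 from 23800001 to 23900000, chromosome 4 from 17100001 to 17200000, chromosome 3 from 116300001 to 116400000 and chromosome 8 from 85700001 to 85800000, at 21.2% to 23.6%. The lowest level among these 10 was 0.835, that of the chromosome 9 window in replicate 1. The 2-fold limit leaves less room for variation at a higher level, so a link between evenness and level is in part set by the rule.

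The least even window was on chromosome 6 from 1500001 to 1600000, with a shared variation of 40.8%. It held 2463 reads in replicate 1 and 4445 in replicate 2, a level of 0.819 and 0.811, and its bins ran from 0.456-fold to 2.04-fold. It was also the most isolated from enriched bins on its nearer side, with 620 kb free below it and 840 kb above. Its neighbours stood at 0.527 and 0.479 below and at 0.526 and 0.495 above, so that it was higher than both.

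Next in unevenness came windows on chromosomes 1, 18 and 3. The chromosome 1 window from 116800001 to 116900000 had 39.3%, with bins from 0.509-fold to 2.17-fold. The chromosome 18 window from 49300001 to 49400000 had 37.4%, with bins from 0.351-fold to 2.13-fold, and the chromosome 3 window from 71500001 to 71600000 had 34.3%. The other 6 of the 10 least even lay on chromosomes 15, 14, 10, 1, 20 and 4, at 28.8% to 32.3%. The lowest single bin of all was 0.215-fold, in the chromosome 10 window from 117300001 to 117400000, where 94 and 99 of 100 bins of 1 kb were listed. Of the 27 windows, 22 had every 1 kb bin listed in both libraries.

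The borders of the windows were mixed. Of their 54 neighbouring windows, 37 (68.5%) held an enriched bin, against 57.0% of all eligible windows, and 17 held none. Over eligible neighbours the share was 75.4% of 1731 for the 1075 windows with an enriched bin, 82.1% of 4695 for all 2829 such windows at 0.8 to 1.5, and 2214 of 8849 for windows under 0.8 without an enriched bin. An enriched bin lay in both neighbours of 12 windows, in 1 neighbour of 13 and in neither neighbour of 2, the chromosome 6 window just described and the lower window of the chromosome 4 pair. By level, 25 neighbours were themselves of intermediate level with an enriched bin, 5 were above 1.5, 5 were under 0.8 with an enriched bin, 17 were under 0.8 without one, and 2 fell on different sides of a limit in the libraries. No neighbour of the 27 windows was ineligible, against 19.4% of the neighbours of the 1075. Neighbouring windows depend on each other, so these shares have no test.

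**Figure D5:**
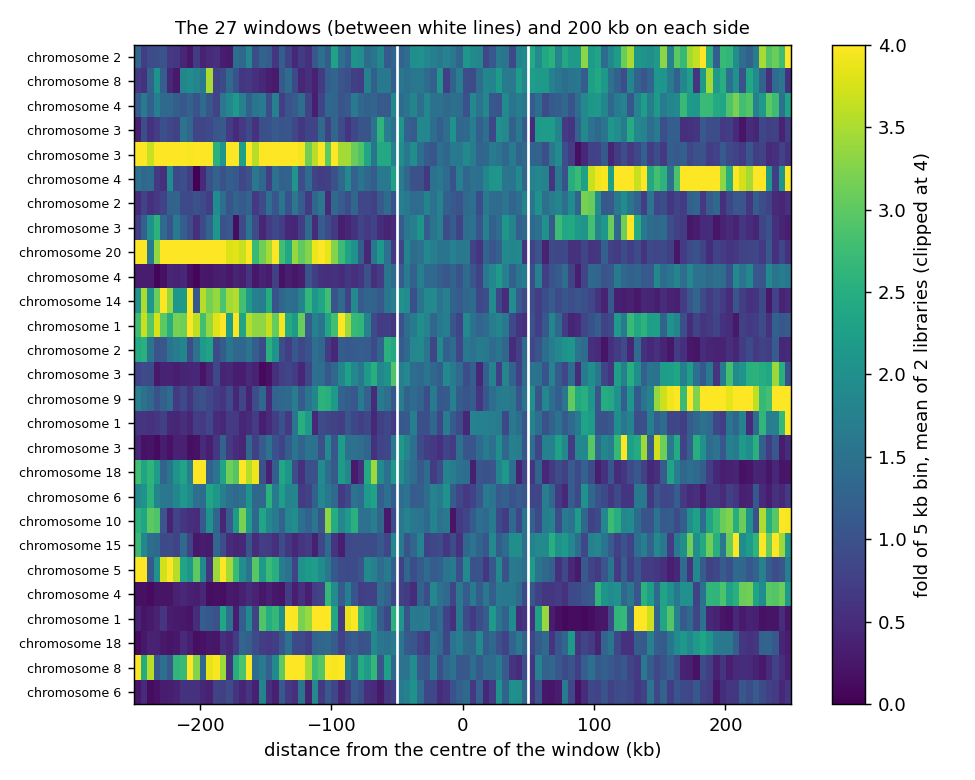
Fold of 5 kb bins (colour, mean of both libraries, clipped at 4-fold) in the 27 windows, between the white lines, and in 200 kb on each side; the horizontal axis is the distance from the window's centre in kb. Rows are ordered from the highest level at the top and labelled by chromosome; 7 windows are touched at an edge by an enriched bin, and the chromosome 6 window from 1500001 has none within 620 kb.

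Most windows had an enriched bin close on at least 1 side. The nearer one touched the edge in 7 windows, lay within 10 kb in 11 and within 50 kb in 25, with a median distance of 15 kb. On the farther side the median was 140 kb, 8 windows had an enriched bin within 50 kb of both edges, and 4 had more than 1 Mb free. In windows under 0.8 without an enriched bin the medians were 200 kb and 915 kb, at a much lower level. These distances were not taken over all eligible windows, so closeness is not shown to be particular to the 27. The whole stretch without an enriched bin that held a window had a median of 240 kb, against 1310 kb for windows under 0.8 without an enriched bin. Over the whole stretches of the 27 windows, each window's own bins included, 5 kb bins averaged a median of 1.12-fold in replicate 1 and 1.13-fold in replicate 2. The rule holds a window's own bins at an average of 1.23-fold or more, so these values do not describe the surroundings alone.

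By the levels of their neighbours, 17 of the 27 windows stood on a slope, with a higher neighbour on one side and a lower one on the other. Higher neighbours on both sides bordered 6, and lower ones on both sides bordered 4. The same counts were not taken over all eligible windows. In 19 of 27 windows (70.4%) the 50 kb beside the higher neighbour held more signal than the other 50 kb. The share was also 70.4% in 1074 windows of the same range of levels with an enriched bin, so this was not particular to the 27.

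Some windows had enriched bins close to both edges. The chromosome 1 window from 116800001 to 116900000 lay in a stretch of 105 kb between enriched bins, and its neighbours stood at 2.06 and 2.08 below and at 0.948 and 0.947 above. On chromosome 3, the window from 117400001 to 117500000 lay in a stretch of 115 kb, at 0.987 in replicate 1 and 0.977 in replicate 2, between a lower neighbour with 1 enriched bin at 0.735 and 0.737 and an upper one with 4 at 1.05 and 1.07. The chromosome 4 window from 17100001 to 17200000 lay in a stretch of 130 kb, at 0.959 and 0.957. Its lower neighbour, with 1 enriched bin, stood at 0.884 and 0.845, and its upper neighbour, with 13, at 1.94 and 1.81.

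Other windows had a long stretch without an enriched bin on one side. The chromosome 18 window from 7000001 to 7100000 lay at the upper end of a stretch of 2945 kb, from 4185001 to 7130000, that averaged 0.409-fold in both libraries. It stood at 0.810 and 0.837, above both its neighbours, at 0.754 and 0.750 below and, with 1 enriched bin, at 0.706 and 0.676 above. On chromosome 6, the window from 114700001 to 114800000 began 15 kb beyond an enriched bin and had 1415 kb free above it. The chromosome 14 window from 98000001 to 98100000, at 0.871 and 0.934, had 1175 kb free above it and an upper neighbour at 0.447 and 0.473. A drop also followed the chromosome 20 window from 38000001 to 38100000, at 0.912 and 0.933, whose neighbours stood at 1.73 and 1.74 below and at 0.493 and 0.535 above. On chromosome 8, the window from 58300001 to 58400000, at 0.815 and 0.817, had a lower neighbour with 14 enriched bins at 1.87 and 1.81 and 500 kb free above it.

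By chromosome, the windows numbered 5 on chromosome 3, 4 on chromosome 4, 3 each on chromosomes 1 and 2, 2 each on chromosomes 6, 8 and 18, and 1 each on chromosomes 5, 9, 10, 14, 15 and 20. Chromosomes 7, 11, 12, 13, 16, 17, 19, 21 and 22 held none. The largest share of eligible windows was on chromosome 4, at 0.518% of 772, followed by chromosome 18 at 0.482% of 415 and chromosome 3 at 0.454% of 1101. With counts of at most 5, the order of chromosomes rests on single windows, and chromosome 4 lost its place when either library was left out: chromosome 8 led without replicate 1, at 2.24%, and chromosome 20 without replicate 2, at 0.247%. Chromosome 18 led with windows shifted by 50 kb, with replicate 2 thinned, and without the distal parts of chromosomes 8, 10 and 17. Chromosome 4 also had the lowest median level of eligible windows, 0.416 in replicate 1 and 0.420 in replicate 2, and the smallest share of windows with an enriched bin, 40.7%. Chromosome 22, with no kept window, had the highest median level, 1.07 and 1.04, and 82.3% of its windows held an enriched bin. The part of these values in where the windows lay was not tested.

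Parts of chromosomes 8 (beyond 70 Mb), 10 (beyond 100 Mb) and 17 (beyond 45 Mb) had raised levels in earlier results of these data. They held 2 of the 27 windows (7.41%), against 7.95% of eligible windows. These were chromosome 8 from 85700001 to 85800000, at 1.01 in both libraries, and chromosome 10 from 117300001 to 117400000, at 0.819 and 0.842. The part of copy number in their levels was not tested.

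The number of windows depended on how the mean window was set. When 90 listed bins in either library were enough, a setting added after the data had been seen, 22491 windows were eligible and 372 (1.65%) met the rule, the same 27 among them. Of the 345 added windows, 344 had 90 bins listed in each library, so it was the scale that moved: the mean window fell to 1.13 times the mean of 5 kb bins in each library, and the lower limit of 0.8 to 0.902-fold in replicate 1 and 0.905-fold in replicate 2. Of 3268 windows at 0.8 to 1.5 (14.5%), these 372 were 11.4%, so windows with an enriched bin still made up most of the range. The median of shared variation was 37.8%.

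In this wider set too, most windows stood alone. There were 316 runs, of which 271 were 1 window, 38 were 2, 4 were 3, 2 were 4 and 1 was 5 windows long. At 500 kb the longest was that of chromosome 4 from 16500001 to 17000000. Its 5 windows stood at 0.898, 0.813, 0.971, 0.916 and 0.908 in replicate 1 and at 0.960, 0.870, 0.891, 0.919 and 0.939 in replicate 2, on the wider scale. They lay close together, while the window below the run stood at 1.71 and 1.61, with 7 enriched bins, and the window above it at 1.21 and 1.15, with 1. The shared variation over its 100 bins was 36.2%, and its lowest bin held no read in either library.

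Runs of 400 kb lay on chromosomes 2 and 8, the one from 222000001 to 222400000 and the other from 71900001 to 72300000. On chromosome 2 the level was 1.01 in replicate 1 and 1.03 in replicate 2, enriched bins lay 20 kb below and 40 kb above, and the last of its windows was the second most even of the 27. On chromosome 8 the level was 0.966 and 0.944, an enriched bin lay 35 kb below, and the window above the run was at 0.508 and 0.533 without an enriched bin. The chromosome 8 run lies within the part beyond 70 Mb, and the part of copy number in its level was not tested. Runs of 300 kb were on chromosomes 4, 6, 14 and 15, and that on chromosome 4, from 23800001 to 24100000, joined the pair described above at 1.21 and 1.22.

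Of 612 eligible windows next to a run end in the wider set, 396 held an enriched bin, against 41.8% of all windows eligible there. Of its windows 8.33% lay in the raised parts of chromosomes 8, 10 and 17, against 6.25% of the eligible ones. On chromosome 8 the share was 2.99% of 736 windows beyond 70 Mb and 2.65% of 603 windows before it, on chromosome 10 it was 2.47% of 324 beyond 100 Mb and 1.58% of 821 before it, and on chromosome 17 it was 0.290% of 345 beyond 45 Mb and 1.59% of 315 before it. Chromosome 8 had the largest share of all, 2.84%, and chromosome 19 held none of 359. Chromosome 4, with the largest share at the stricter listing, held 1.54% of 1492 in the wider set.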

How the data were processed

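H3K27me3 ChIP-seq was described in 2 libraries of HCT116 cells. The authors deposited raw read counts in bins of 1 kb, as the text beside the files states, with empty bins omitted. The submitters' processing notes name BWA 0.7.12 and the builds hg19 and GRCh37. The sources used here do not say how duplicates and mapping quality were treated or which counter was used. Counts were summed in bins of 5 kb and windows of 100 kb with Python 3.11.15, numpy 2.4.6 and pandas 2.3.3, and drawn with matplotlib 3.10.9. The autosomal mean was taken over 5 kb bins with at least 1 read. Incomplete windows at chromosome ends were left out. No test was run, since the rule uses the same reads, and n is 2 libraries of 1 group whose spread may be technical. The rule and evenness measure were checked on simulated counts. The windows and comparisons were chosen with earlier results of these data known. Named regions are the longest runs, the 10 most and least even windows and those beside each limit; others named for their borders were chosen after their values were seen. The gene and promoter tables at hand are on GRCh38, so no gene or sequence is given for these hg19 windows. Reads on X are used in the closing section alone.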

Additional observations from a re-analysis of the deposited data

How the results depend on the processing

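Counts were taken as close within 1.5 times and other values within 1 SD of the values from either library alone; the longest run and the largest share also had to stay within 1.5 times, and the share on the same chromosome. By this 25 values stayed close and 39 moved. The SD is not a replicate spread alone. In replicate 1 alone 14884 windows were eligible and in replicate 2 alone 22472, each set with its own mean window. The settings with a library left out were also graded by the SD that they set. The bounds of 1.5 times on runs and shares were set after the values were seen. The rule is sensitive to its limits, since the windows crowd at 0.8 and near 2-fold, and to the scale. The 27 windows became 332 with 50 kb windows, 116 at limits of 0.7 to 1.6, 10 at the narrower limits from 0.9, 0 with every 1 kb bin listed (4040 eligible windows and a higher mean), 0 at a 5 kb limit of 1.5-fold, 4 with 2-fold in either library, 610 with levels over the median window, and, with settings added after the data were seen, 372 with bins listed in either library and 634 with levels over the mean of 5 kb bins. Without replicate 2 it was 12 and without replicate 1 it was 282. The longest run, 100 kb, became 200 kb with windows shifted by 50 kb, 300 kb at 0.7 to 1.6, 0 in both settings that left no window, 500 kb over the median window and in both added settings; either library alone gave 100 and 300 kb. The shared variation, 26.1%, became 33.0% at 0.7 to 1.6, 41.4% over the median window and over the 5 kb mean, and 37.8% with either library listed. It was 27.7% to 37.5% when the windows were chosen in 1 replicate alone. These last values still take the covariance of both libraries, so a replicate was left out of the choice of windows alone. Run ends beside an enriched window, 68.5%, became 59.0% with 50 kb windows, 60% at the narrower limits, 58.3% over the median window and 57.4% over the 5 kb mean, and 65.7% to 75% with a replicate left out. The largest share, 0.518% on chromosome 4, became 2.34% on chromosome 18 with 50 kb windows, 6.55% on chromosome 21 over the median window, 2.84% on chromosome 8 with either library listed, 7.14% on chromosome 21 over the 5 kb mean, 0.948% on chromosome 18 with shifted windows, 0.490% there with replicate 2 thinned, 0.723% there without distal chromosomes 8, 10 and 17, 1.46% on chromosome 8 at 0.7 to 1.6, and 0.247% on chromosome 20 with 2-fold in either library. It was 2.24% on chromosome 8 without replicate 1 and 0.247% on chromosome 20 without replicate 2. Where no window was left, evenness, borders and shares had no value. Other causes were not tested. No paired analysis was possible because the libraries form 1 group.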

Other observations

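On chromosome X, read with the autosomal means, 322 of 1552 windows were eligible, with a median level of 0.459 in replicate 1 and 0.461 in replicate 2. Of these, 58 stood at 0.8 to 1.5 in both libraries, and 3 of the 58 held no enriched bin. Most of the 58 thus contained an enriched bin, which is in large part set by the rule. The lower limit asks for an average of 1.23-fold per 5 kb bin on X too. The share with an enriched bin over all 322 eligible windows of X was not taken.

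Relaxing the rule by 1 enriched bin per window gave 104 windows on the autosomes, and 97 runs, of which 7 covered 200 kb and none was longer. The 77 windows with 1 enriched bin had a median level of 0.871 in replicate 1 and 0.864 in replicate 2 and a median shared variation of 36.4%. Their enriched bin, read in the lower library, had a median of 2.29-fold and reached 4.51-fold, and in 29 of them it lay under 2.2-fold. The runs of 200 kb included chromosome 9 from 200001 to 400000, at 0.880 and 0.859, and chromosome 15 from 61700001 to 61900000, at 0.910 and 0.948.

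Windows that missed the listing minimum numbered 13927 of 28792 and had a median level of 0.129. Among them 199 stood at 0.8 to 1.5 in both libraries, and 0 of these lacked an enriched bin. Their reads stood in fewer listed bins, while the lower limit still asked for an average of 1.23-fold per 5 kb bin. This outcome is therefore in large part set by the rule. The share with an enriched bin over all 13927 was not taken.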
